A study of Penicillium oxalicum with 6 samples.

Results

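The genes described here are neighbours on chromosome III of the filamentous fungus Penicillium oxalicum, from POX_c04227 to POX_c04261 in the order of their locus tags. All 35 tags are among the 10899 IDs of the files. In the middle lie the 15 genes POX_c04237 to POX_c04251, called the 15-gene run below, and 10 tags were taken on each side of it. The run was chosen because its transcript levels differed between the groups compared here, so its own difference is a description. Calls from the fit over all IDs are printed for it only beside the background, and nothing is read from them. The flanking tags were taken by number, counted from the ends of the run. Those ends lie where the difference stops, so the next genes, POX_c04236 and POX_c04252, were not taken independently of their values. By the RefSeq annotation of strain HP7-1 (assembly ASM172317v3), 34 of the 35 tags are protein-coding genes in the same order as their tags, and POX_c04261 was not matched. That annotation places 1 other gene, a tRNA gene, between POX_c04228 and POX_c04229, and 0 other genes inside the run.

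In filamentous fungi, genes that act in the same biosynthetic or catabolic pathway often lie side by side and are transcribed together. Such clusters typically hold an enzyme that builds a backbone, enzymes that modify it, a transporter and sometimes a regulator specific to the cluster, and many are nearly silent in standard culture. The files give no product names, so the genes are described without functions, and whether these genes form such a pathway was not tested.

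Poly(A) RNA from bulk mycelium was sequenced in 6 libraries. The 3 silenced libraries came from strain △PoxKu70 carrying a silencing of the gene POc04478, with copper ions added at 5 μM. The 3 parental libraries are titled PoxKu70, although their genotype field reads WT, so the PoxKu70 background may also differ between the groups. The labels do not say whether copper was added to the parental libraries. Silencing, copper and, if the genotype field is right, the PoxKu70 background therefore cannot be told apart. In both groups mycelium grew for 24 h in glucose medium and then for 24 h in enzyme-production medium, whose carbon source is Avicel (a microcrystalline cellulose) in the protocol and raw starch in the treatment field. PoxKu70 encodes a protein of DNA end joining, and its loss makes gene targeting easier. The labels do not say whether the 3 libraries of a group are separate cultures or how many transformants they represent.

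Levels are in FPKM, fragments scaled by transcript length and by library size, so levels of different genes can be compared per length. Sequencing depth is unknown, so no counting interval is given, and values near 0 FPKM are the least precise. Each library detected 9737 to 9937 IDs above 0. The silenced gene, POX_c04478 by its tag, had 15.9, 17.8 and 19.0 FPKM in silenced libraries, against 159, 116 and 131 FPKM in parental libraries. Parental replicate 1 stood apart, since 638 of the 9341 tested IDs had log2(FPKM + 1) values there that were lower by 1 or more than in either of its fellow libraries, against 35 to 73 such IDs in each of the other 5 libraries. Folds, the summed level, shares and the spread within groups are therefore also given without it for the run.

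The 15 genes of the run had low parental means, from 0.237 FPKM, barely above 0, to 5.56 FPKM. In the silenced libraries they were transcribed at low to moderate levels. Their summed level was 620, 764 and 976 FPKM in silenced replicates 1, 2 and 3, against 18.0, 29.9 and 62.2 FPKM in parental replicates 1, 2 and 3. The means were 787 ± 179 FPKM in silenced and 36.7 ± 22.9 FPKM in parental libraries (SD, n = 3 each), a 21.4-fold difference. The fold was 32.8 without parental replicate 3 and 17.1 without parental replicate 1. Even so, the 15 genes held 0.05% to 0.0757% of all summed FPKM in silenced libraries, and 0.00135% to 0.00475% in parental libraries. In parental replicate 1, 8 of the 15 genes were listed under 1 FPKM, whereas 0 of 15 were in any silenced library. Because mycelium was measured in bulk, a larger share of hyphae transcribing these genes and more transcript per hypha cannot be told apart.

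**Figure D1:**
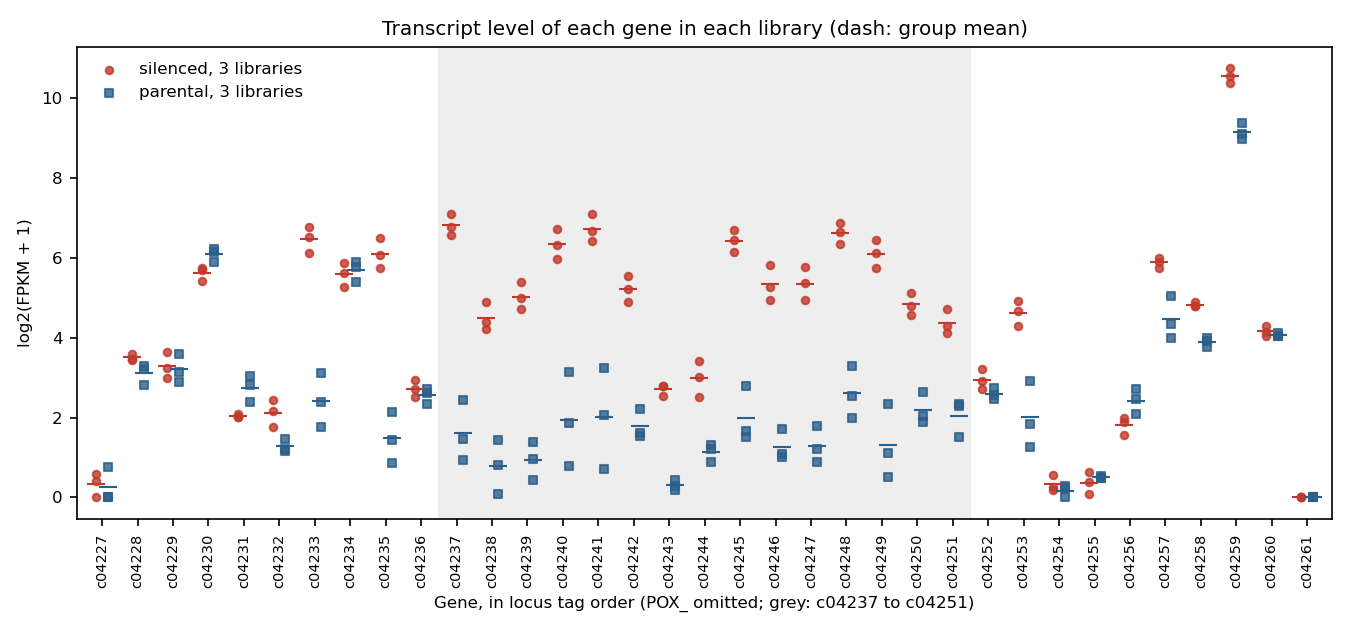
Level of each gene as log2(FPKM + 1) on the vertical axis, with genes in tag order on the horizontal axis. Red circles are the 3 silenced libraries, blue squares the 3 parental libraries and dashes their means. The silenced points lie above all parental points for every gene of the grey 15-gene run, and outside it also for POX_c04228, POX_c04232, POX_c04233, POX_c04235, POX_c04253, POX_c04257, POX_c04258 and POX_c04259.

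The run began with its most abundant gene in the silenced libraries. POX_c04237 had 93.5, 108 and 135 FPKM in silenced libraries, against 0.91, 1.78 and 4.45 FPKM in parental libraries. Its 47.1-fold difference between means was the largest of the 15. The lowest silenced value was 21.0 times the highest parental value, so the groups lay far apart. Next to it, POX_c04238 had 17.6, 20.0 and 28.8 FPKM in silenced libraries, against 0.06, 0.75 and 1.73 FPKM in parental libraries. POX_c04239 had 25.4, 30.5 and 40.6 FPKM in silenced libraries, against 0.35, 0.95 and 1.62 FPKM in parental libraries. Both were thus several times lower than POX_c04237 in the silenced group, but their folds of 26.1 and 33.1 were still large because the parental values were close to 0.

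POX_c04240 and POX_c04241 shared a pattern, high in every silenced library and very uneven among parental libraries. POX_c04240 had 61.4, 78.9 and 104 FPKM in silenced libraries, against 0.74, 2.65 and 7.78 FPKM in parental libraries. POX_c04241 had 84.2, 101 and 135 FPKM in silenced libraries, against 0.65, 3.17 and 8.45 FPKM in parental libraries. The parental values of these 2 genes spanned 10.5-fold and 13-fold between replicates 3 and 1, and the silenced values 1.70-fold and 1.60-fold. With parental replicate 1 left out, the parental spans were 2.94-fold and 2.67-fold. POX_c04242 followed with 28.7, 36.4 and 45.2 FPKM in silenced libraries, against 2.04, 1.89 and 3.61 FPKM in parental libraries, a 14.6-fold difference with no overlap.

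The lowest silenced levels lay in the middle of the run. POX_c04243 had 4.85, 5.86 and 5.90 FPKM in silenced libraries, against 0.21, 0.14 and 0.36 FPKM in parental libraries. All 3 parental values are close to 0, and the fold of 23.4 rests on them. POX_c04244 had 4.70, 7.12 and 9.57 FPKM in silenced libraries, against 1.31, 0.85 and 1.5 FPKM in parental libraries. Its 5.84-fold difference was the smallest of the run, although the groups still did not overlap.

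Levels were higher again in the next stretch. POX_c04245 had 69.7, 85.4 and 103 FPKM in silenced libraries, against 1.87, 2.16 and 5.86 FPKM in parental libraries. Its neighbours POX_c04246 and POX_c04247 had nearly the same values as each other, with means of 41.0 ± 13.1 and 40.9 ± 11.8 FPKM in silenced libraries, against 1.48 ± 0.70 and 1.54 ± 0.83 FPKM in parental libraries (SD, n = 3 each). By library, POX_c04246 had 29.9, 37.7 and 55.5 FPKM in silenced and 1.01, 1.14 and 2.28 FPKM in parental libraries. For all 3 genes the folds were close, between 26.1 and 27.8. POX_c04247 had 29.5, 40.4 and 53.0 FPKM in silenced libraries, against 0.85, 1.32 and 2.46 FPKM in parental libraries. POX_c04248 had 79.6, 98.2 and 116 FPKM in silenced libraries, against 3.00, 4.83 and 8.86 FPKM in parental libraries. It held the highest parental level of the run in each parental library, and its fold was correspondingly lower, at 17.6.

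The last 2 genes at the far edge differed less than most of the run. Before them, POX_c04249 had 52.1, 68.9 and 86.1 FPKM in silenced libraries, against 0.42, 1.15 and 4.07 FPKM in parental libraries, a 36.7-fold difference. POX_c04250 had 22.9, 26.9 and 33.5 FPKM in silenced libraries, against 2.69, 3.11 and 5.28 FPKM in parental libraries. POX_c04251, the last gene, had 16.3, 18.6 and 25.1 FPKM in silenced libraries, against 1.86, 4.06 and 3.87 FPKM in parental libraries. The folds of these last 2 genes were 7.52 and 6.11, the lowest of the run after POX_c04244. Only POX_c04251 among the 15 had its highest parental value in parental replicate 2.

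Parental replicate 3 carried much of the parental signal. Leaving it out moved the fold by more than 1.5 times for 6 of the 15 genes, to 83.3 for POX_c04237, 54.5 for POX_c04238, 48.1 for POX_c04240, 55.9 for POX_c04241, 42.7 for POX_c04245 and 88.0 for POX_c04249. Leaving out any other single library moved 0 of the 15 folds by that much. Without parental replicate 1, the library that stood apart, folds were between 5.03 and 36.0. How large the difference is therefore depends on parental values near 0.

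On the log2(FPKM + 1) scale, the fold changes of the run ranged from 1.84 ± 0.27 (SE) for POX_c04244 to 5.19 ± 0.38 (SE) for POX_c04237, with a median of 4.05, beside a median of -0.12 over all 9341 tested IDs. At an adjusted p under 0.05 in a limma fit over all IDs, 15 of 15 genes were called higher, where 24.4% of all tested IDs were, and 54.8% were called in either direction. All 15 also had a log2 fold change of 1 or more, and 14.7% of all tested IDs were called higher at that size. Every silenced value exceeded every parental value in 15 of 15 genes, which was also so for 29.2% of all tested IDs. The run was selected on this contrast, so nothing is read from these counts. Ranked by log2 fold change, 56 of 9341 tested IDs (0.600%) stood at or above the run's median and 586 (6.27%) at or above its lowest member.

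**Figure D2:**
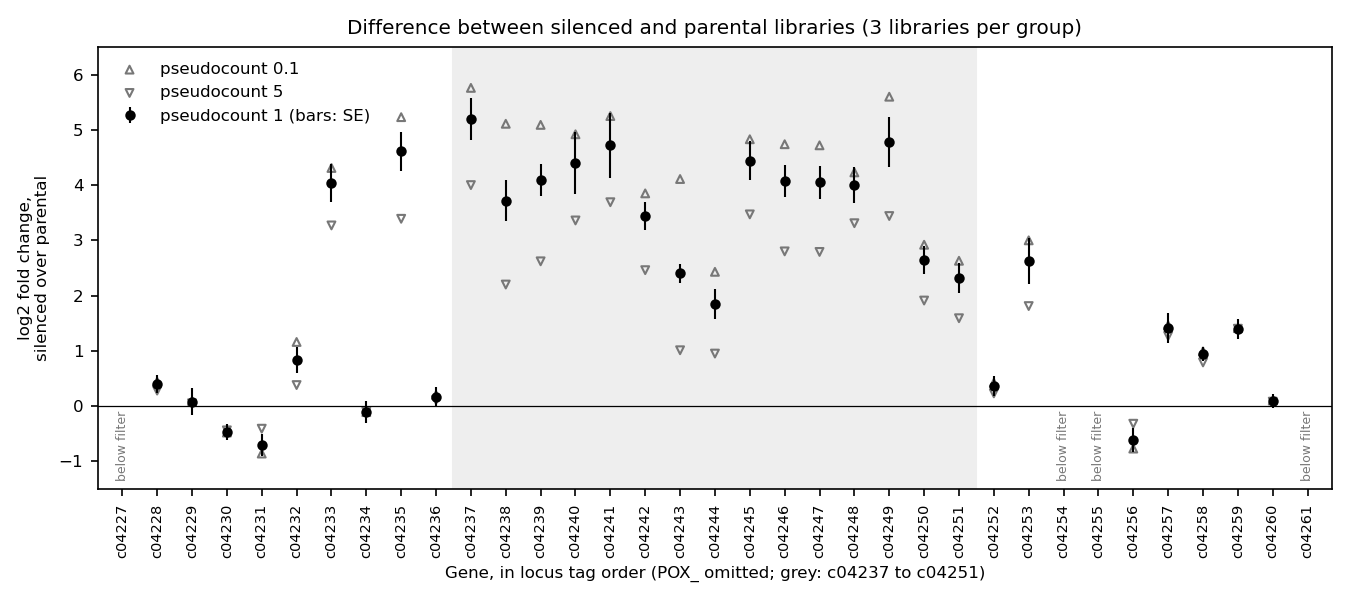
Log2 fold change, silenced over parental, for each gene in tag order, with bars for the moderated SE of the limma fit (3 libraries per group). Filled circles use a pseudocount of 1, and open triangles show pseudocounts of 0.1 and 5, which spread most for genes with low parental levels. The 15-gene run (grey) lies between 1.84 and 5.19, and the values fall to 0.17 at POX_c04236 and 0.36 at POX_c04252.

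The unbroken run ended abruptly on both sides, although genes with a like difference lay beyond its ends. Just outside it, POX_c04236 had 4.75, 5.56 and 6.67 FPKM in silenced libraries, against 4.06, 5.51 and 5.14 FPKM in parental libraries. On the other side POX_c04252 had 5.57, 6.55 and 8.30 FPKM in silenced libraries, against 4.48, 4.95 and 5.64 FPKM in parental libraries. In both genes the groups overlapped, and the log2 fold changes were 0.17 ± 0.18 and 0.36 ± 0.18 (SE), against 5.19 and 2.32 at POX_c04237 and POX_c04251, the genes just inside. After median-of-ratios scaling POX_c04252 was called, at 0.48. POX_c04236 and POX_c04252 were transcribed at similar low levels in both groups, so they were more abundant than most genes of the run in parental libraries and less abundant than most of them in silenced libraries.

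Beyond each of these boundary genes lay further genes with a difference like that of the run, singled out here after their values were seen. POX_c04235 had 52.3, 65.5 and 89.5 FPKM in silenced libraries, against 0.81, 1.73 and 3.43 FPKM in parental libraries. POX_c04233 had 68.4, 90.2 and 107 FPKM in silenced libraries, against 2.40, 4.21 and 7.72 FPKM in parental libraries. POX_c04253 had 18.7, 24.3 and 29.3 FPKM in silenced libraries, against 1.39, 2.58 and 6.5 FPKM in parental libraries. The folds between means were 34.7, 18.5 and 6.90, all within the range of the 15 genes of the run, and the groups did not overlap in any of these 3 genes. Every silenced value exceeded every parental value in 29.2% of all tested IDs too. Without parental replicate 3 the folds of POX_c04235 and POX_c04253 were 54.4 and 12.1.

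Between POX_c04233 and POX_c04235 lies POX_c04234, which had 37.5, 47.8 and 57.1 FPKM in silenced libraries, against 41.1, 53.5 and 58.2 FPKM in parental libraries. It was thus a moderately transcribed gene with overlapping groups and a log2 fold change of -0.10 ± 0.20 (SE), which was 0.03 after median-of-ratios scaling. If single genes that miss the criteria are allowed inside a run, a setting added after the data were seen, the stretch runs from POX_c04233 to POX_c04253. It then spans 21 genes, of which 18 were called higher at a log2 fold change of 1 or more, beside 14.7% of all tested IDs. Its ends were set after these calls were seen, so nothing is read from that count. The 3 that were not are POX_c04234, POX_c04236 and POX_c04252.

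Farther out the levels differed less. POX_c04232, next to POX_c04233, had 2.37, 3.48 and 4.38 FPKM in silenced libraries, against 1.31, 1.25 and 1.77 FPKM in parental libraries, and was called higher, at a log2 fold change of 0.83. That call was lost without parental replicate 2 and without silenced replicate 2 or 3, with values of 0.78, 0.81 and 0.68. POX_c04230 and POX_c04231 were called lower, with means of 48.3 ± 5.55 and 3.10 ± 0.13 FPKM in silenced libraries, against 67.3 ± 7.82 and 5.83 ± 1.47 FPKM in parental libraries (SD, n = 3 each). Their log2 fold changes of -0.47 and -0.71 were not called without parental replicate 2 or 3 or without any 1 silenced library, at -0.52 to -0.37 for POX_c04230 and -0.74 to -0.57 for POX_c04231, and POX_c04230 was not called after median-of-ratios scaling (-0.34). POX_c04228 and POX_c04229 had log2 fold changes of 0.40 and 0.08 and were not called, although POX_c04228 was called after median-of-ratios scaling (0.52) and with library weights (0.39). POX_c04227 was listed between 0 and 0.49 FPKM in silenced and between 0 and 0.70 FPKM in parental libraries, and was below the filter of the test. Of the 9 tested genes before the run, 3 were called higher, 2 lower and 4 neither, where 24.4% of all tested IDs were called higher and 30.4% lower. These counts include POX_c04236, which lies at the run's end and so was not taken independently of its values.

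On the far side, POX_c04254 and POX_c04255 were listed under 1 FPKM in all 6 libraries, from 0.07 to 0.55 FPKM in silenced and from 0 to 0.46 FPKM in parental libraries. POX_c04254 had 0.20, 0.13 and 0.47 FPKM in silenced libraries, against 0.21, 0 and 0.18 FPKM in parental libraries. They did not reach the filter of 1 FPKM in 3 libraries and were not tested, nor was POX_c04261, which was listed at 0 in every library. POX_c04256 had 1.94, 2.68 and 3.00 FPKM in silenced libraries, against 3.28, 4.49 and 5.56 FPKM in parental libraries, and was not called. All 3 silenced values lay below the parental ones there, as they did for 36.6% of all tested IDs, and its log2 fold change of -0.61 was called with a replicate block (-0.61), without a variance trend (-0.61), with library weights (-0.69) and without parental replicate 1 (-0.77).

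POX_c04257, POX_c04258 and POX_c04259 are neighbours that were called higher, as 24.4% of all tested IDs were, from levels well above 0. They are described together after their calls were seen, and whether they belong together was not tested. POX_c04259 had 1483, 1702 and 1325 FPKM in silenced libraries, against 498, 663 and 546 FPKM in parental libraries, by far the highest levels of the 35 genes. POX_c04257 had 63.1, 58.6 and 52.5 FPKM in silenced libraries, against 14.97, 31.8 and 19.3 FPKM in parental libraries. POX_c04258 had 26.6, 26.8 and 28.9 FPKM in silenced libraries, against 14.1, 12.5 and 14.9 FPKM in parental libraries. The fold was 2.64 for both POX_c04257 and POX_c04259 and 1.99 for POX_c04258. Every silenced value exceeded every parental value in each of these genes, as in 29.2% of all tested IDs. POX_c04260 beside them had 16.9 ± 1.54 FPKM in silenced and 15.7 ± 0.46 FPKM in parental libraries (SD, n = 3 each) and was not called. Of the 7 tested genes after the run, 4 were called higher and 0 lower, beside backgrounds of 24.4% and 30.4%. The 7 include POX_c04252 at the run's end, which was not taken independently of its values.

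Libraries of one group differed from each other in the run. The run was chosen for low parental and higher silenced levels, and low values widen ratios, so the spread within groups is not independent of that choice and is given as a description. Silenced replicate 3 was highest and silenced replicate 1 lowest of its group in 15 of 15 genes, a pattern that 45.4% of all tested IDs also had. Of the tested flanking genes, 7 of 9 before the run and 5 of 7 after it had it too. Parental replicate 3 was highest and parental replicate 1 lowest in 11 of 15 genes, where 20.0% of all tested IDs had that pattern. So did 5 of 9 tested genes before the run and 3 of 7 after it. The size of the gap differed between the groups. The ratio of silenced replicate 3 to silenced replicate 1 had a median of 1.60 over the run, with a range of 1.22 to 2.04. Its median was 1.1 over the 9186 tested IDs with values above 0 in all silenced libraries. The ratio of parental replicate 3 to parental replicate 1 had a median of 2.95 and a range of 1.15 to 28.8, and it was at least 2 in 11 of 15 genes, against 11.5% of the 9147 tested IDs with values above 0 in all parental libraries. Among the 1378 of these IDs with a parental mean in the range of the run, 0.237 to 5.56 FPKM, 24.2% reached 2. Without parental replicate 1, the ratio of parental replicate 3 to parental replicate 2 had a median of 2.00 and a range of 0.953 to 3.54 over the run. It was at least 2 in 8 of 15 genes, against 11.3% of those 1378 IDs and 3.30% of all 9147. The extreme of 28.8 belongs to POX_c04238, which was listed at 0.06 FPKM in parental replicate 1.

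The 3 outlying genes showed a parental gap as well, and in the 3 genes between them and the run it was smaller. Parental replicate 3 exceeded parental replicate 1 by 3.22-fold in POX_c04233, 4.23-fold in POX_c04235 and 4.68-fold in POX_c04253. In POX_c04234, POX_c04236 and POX_c04252 the ratio was 1.42, 1.27 and 1.26. Parental replicate 3 over parental replicate 2 was 1.83 to 2.52 in the outlying genes and 0.933 to 1.14 in the genes between. The silenced ratios of replicate 3 to 1 were 1.56 to 1.71 in the outlying genes and 1.40 to 1.52 in the genes between, so each outlying gene lay above each gene between in these too. The outlying genes had lower parental levels than POX_c04234, and they were singled out for their difference, so this contrast is not independent of how they were picked. In POX_c04257, POX_c04258 and POX_c04259 the parental ratio was 1.29, 1.06 and 1.10, and the silenced ratio 0.832, 1.09 and 0.893. With 3 libraries per group these are descriptions of single libraries.

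**Figure D3:**
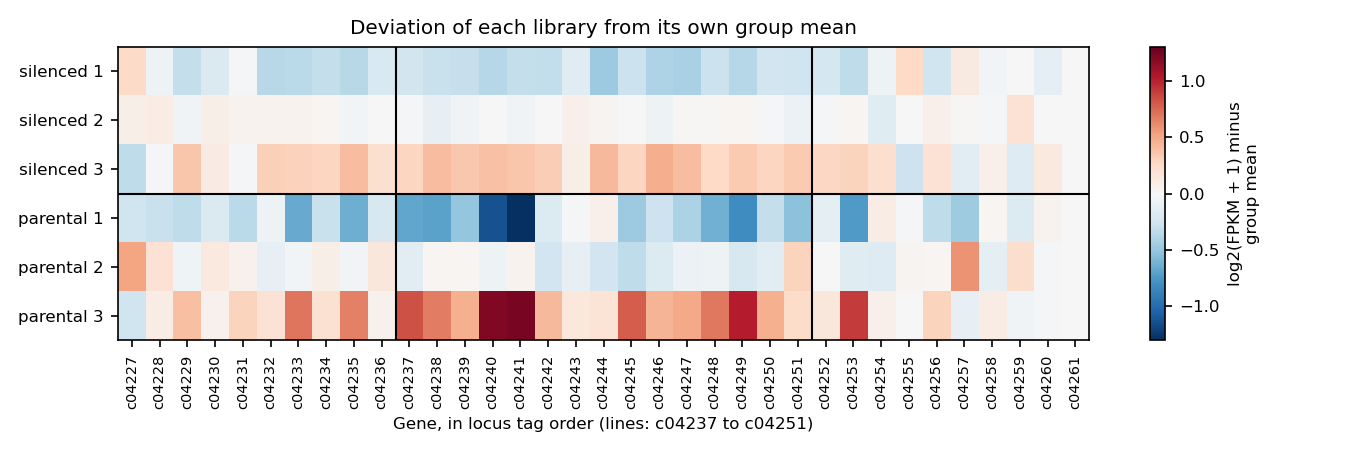
Deviation of each library from the mean of its own group, as log2(FPKM + 1), with silenced libraries above and parental libraries below, and genes in tag order. Red is above and blue below the group mean, and POX_c04261, listed at 0 throughout, is blank. Parental replicate 3 is high and parental replicate 1 low through most of the run and at POX_c04233, POX_c04235 and POX_c04253, while the silenced libraries deviate less.

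Correlations of these deviations over the 6 libraries describe the same pattern. Among the 105 pairs of genes inside the run, Pearson's r had a median of 0.89 and ranged from 0.32 to 1.00, beside a median of 0.23 over 8400 pairs of neighbouring tested genes in the genome and 0.05 over all pairs of tested IDs. POX_c04233, POX_c04235 and POX_c04253 correlated at 0.98, 0.99 and 0.97 with the run's median profile. The genes between also correlated with it, at 0.91 for POX_c04234, 0.76 for POX_c04236 and 0.88 for POX_c04252. A high correlation was therefore not limited to genes that differed between the groups. POX_c04229, with overlapping groups, reached 0.98. POX_c04256, where all silenced values lay below the parental ones, reached 0.96, while POX_c04257 and POX_c04259 stood at 0.03 and -0.06. Over all tested IDs, 505 of 9341 (5.41%) exceeded 0.9. Over the 5 libraries without parental replicate 1 the median inside the run was 0.94, with a range of 0.35 to 1.00. The outlying genes were then at 0.96 to 1.00, and POX_c04234, POX_c04236 and POX_c04252 at 0.83, 0.56 and 0.89. The values over all libraries rest on 6 points that share libraries and depth, and genes are not independent replicates. Deviations within a group cancel out, so fewer than 6 points are free. The values over 5 libraries rest on still fewer free points, since the remaining parental deviations mirror each other, and no background is given for them.

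The proportions among the 15 genes were steady in the silenced libraries. The share of each gene in the run's summed FPKM varied by at most 1.29 percentage points among silenced libraries, for POX_c04237, which held 15.1%, 14.2% and 13.8%. In parental libraries it varied by up to 9.97 points, for POX_c04241, which held 3.62%, 10.6% and 13.6%. That range rests on parental replicate 1, without which POX_c04241 varied by 3.01 points and the largest range was 7.33 points, for POX_c04251. Across the 15 genes, Spearman's rho between levels in pairs of silenced libraries was 0.989 to 0.993, and between pairs of parental libraries 0.457 to 0.875. The highest of these, 0.875, is the 1 pair without parental replicate 1. Between the groups, rho with the silenced libraries was 0.775 to 0.796 for parental replicate 3, 0.504 to 0.532 for parental replicate 2 and 0.146 to 0.171 for parental replicate 1. The parental library with the most signal in the run thus had gene proportions closest to the silenced libraries. Counting error at parental levels near 0 was not separated from this.

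By silenced mean, the order ran from POX_c04237, POX_c04241 and POX_c04248, at 112 ± 20.8, 107 ± 25.8 and 97.9 ± 18.1 FPKM, to POX_c04244 and POX_c04243, at 7.13 ± 2.44 and 5.54 ± 0.60 FPKM (SD, n = 3). The highest mean was 20.2 times the lowest. Neighbours in this order overlapped in their ranges over silenced libraries, except that POX_c04251 lay above POX_c04244 in all values. Within libraries the order was firmer, since POX_c04241 exceeded POX_c04248 in 3 of 3 silenced libraries, whereas POX_c04237 exceeded POX_c04241 in 2 of 3. In the parental group the order was different, led by POX_c04248 at 5.56 ± 3.00, POX_c04241 at 4.09 ± 3.98 and POX_c04240 at 3.72 ± 3.64 FPKM (SD, n = 3), and POX_c04237 ranked 8 of 15. POX_c04250 and POX_c04251, at the end of the run, ranked 4 and 6 in the parental and 11 and 13 in the silenced group.

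**Figure D4:**
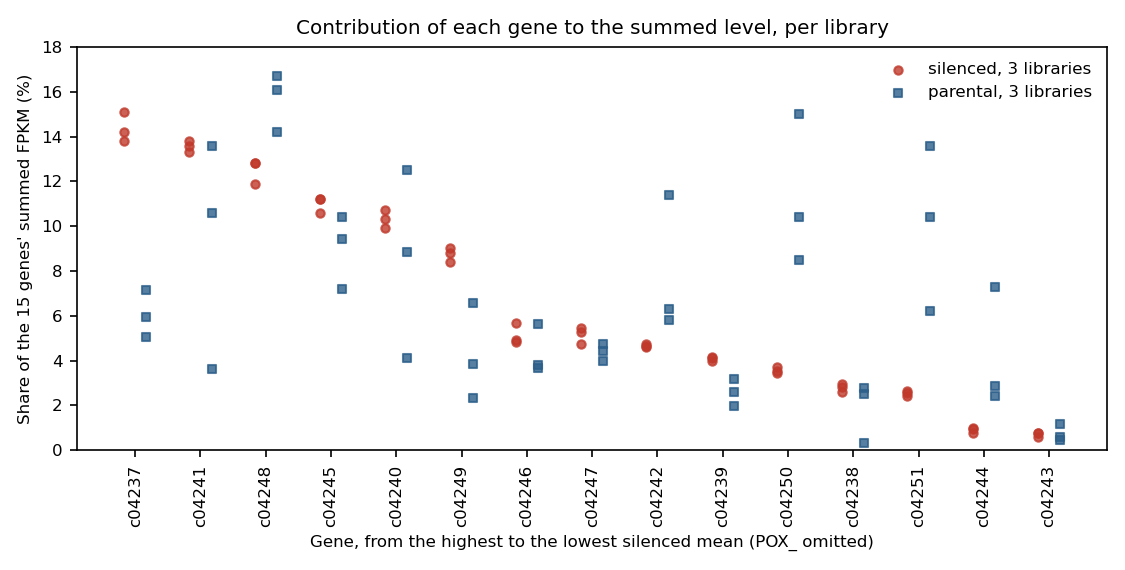
Share of each gene in the summed FPKM of the 15-gene run, in percent, for the 3 silenced libraries (red circles) and the 3 parental libraries (blue squares), with genes ordered by silenced mean. Silenced points of a gene lie within 1.29 percentage points of each other, while parental points of POX_c04241 run from 3.62% to 13.6%.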

How the data were processed

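The authors deposited FPKM values, 1 file per library, per the file headers. Per the submitters' processing notes, bcl2fastq and HISAT2 were used, with no version stated. For the counting program, build and annotation the entry is: not given in the sources used here. Nor does a label state a strand-specific step, and reads of overlapping neighbours cannot be told apart. No build is named, so the gene table served only for names and neighbour order, and no coordinates are printed. A prefix on the tags of parental replicate 2 was removed before joining. Fragment numbers are unknown. An estimate of relative depth from the steps between low FPKM values recovered all 6 known depths to within 5% in 7 of 12 simulated sets, so none is used.

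Silenced and parental libraries were compared in R 4.3.3 by limma 3.58.1, using log2(FPKM + 1), a variance trend and no block, over the 9341 IDs that reached 1 FPKM in 3 or more libraries. P-values were two-sided, with Benjamini-Hochberg adjustment over all tested IDs, and the fit was tested on simulated data. Of the 35 members, 31 passed the filter. The filter can be passed through 1 group alone. The pseudocount of 1 shrinks the log2 fold changes of low genes, so FPKM means are given beside them. P-values set the difference between group means against the spread between libraries, which may be technical. The fit moderates that spread by a trend over all tested IDs, and the SEs of log2 fold changes are moderated in the same way. The members, lists and settings were chosen with earlier results of these data known. All members are named, and values per library are given for the run, the nearest genes on each side and the others where space allowed. Protein and promoter features and gene classes by protein pattern, planned for the members, were not analysed here because no sequences were used.

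Alternatives were pseudocounts of 0.1 and 5, no filter or a mean of at least 5 FPKM, median-of-ratios scaling, a replicate block, no trend, library weights and leaving out each library. Values within groups without parental replicate 1, and against tested IDs of like parental mean, were added after the data were seen.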

Additional observations from a re-analysis of the deposited data

How the results depend on the processing

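The run was selected on this contrast, so its calls under the alternatives are no support for it. POX_c04243 was under 1 FPKM in every parental library and passed the filter through the silenced group alone. POX_c04237 to POX_c04241, POX_c04244, POX_c04247 and POX_c04249 reached 1 FPKM in some parental libraries but not in all. They, like POX_c04235 outside the run, also needed silenced values to pass. Log2 fold changes of the 15 genes ran from 0.95 to 5.76 over the alternatives. The run's median of 4.05 became 4.74 at pseudocount 0.1 and 2.79 at pseudocount 5, was 3.83 without parental replicate 1, and lay between 3.83 and 4.30 with 1 library left out. Median-of-ratios scaling, which moves the median of all tested IDs from -0.12 to near 0, gave 4.16. Members called higher numbered 22 of 31 tested, beside 24.4% of all tested IDs, and 15 of the 22 were selected on this contrast. They numbered 20 to 22 with 1 library left out and 19 to 24 under the other alternatives. The number of IDs changed was 5118, and 3603 to 5576 with 1 library left out. The unbroken run was 15 genes, and 8 to 15 with 1 library left out. It was 8 genes without silenced replicate 1, 2 or 3, because POX_c04243 then failed the filter. It was 7 with a mean of at least 5 FPKM, which removed POX_c04243 and POX_c04244. With a pseudocount of 5 it was 7, because POX_c04244 had 0.95. At a required log2 fold change of 2 it was 7, because POX_c04244 had 1.84. With single failing genes bridged it was 21 genes, and 21 or 22 with 1 library left out. Over all tested IDs, deviations of libraries with the same replicate number correlated at 0.001, 0.029 and 0.123, and those of silenced replicate 1 and parental replicate 2 at 0.129. No clear pairing by number was thus seen over all IDs. Replicate 3 was highest and replicate 1 lowest in both groups in 11 of 15 run genes, beside 10.1% of all tested IDs. The same held for 4 of 9 tested genes before the run and 3 of 7 after it. Whether pairing affects only some genes was not tested. The fit with library weights stopped before its weights had fully converged. A replicate block gave 4667 changed IDs, a run of 15 and a median of 4.05. Without fragment numbers, counting error at low parental levels and the spread between libraries cannot be told apart.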
